A study of Mus musculus with 9 samples.

Results

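The genes described here are 9 genes of glutathione synthesis and of the antioxidant response governed by the transcription factor NRF2. They were picked by gene symbol from a table of liver RNA sequencing: Nfe2l2, Gclc, Gclm, Gss, Gsr, Nqo1, Txnrd1, Srxn1 and Hmox1, or 9 of 37583 genes in the table. All 9 passed the filter on low values, as did 20029 genes in all. The libraries came from livers of adult male C57Bl6 mice aged 16 to 20 weeks and fasted for 6 h. The mice formed 3 groups of 3. Wild-type mice were Gcgr+/+ and given PBS. Knockout-labelled mice were Gcgr-/- and given PBS. Antibody-labelled mice were Gcgr+/+ and received a humanized monoclonal antibody that binds the glucagon receptor, at 10 mg/kg. All injections were intraperitoneal, weekly, over 10 days. The series used both routes to interrupt glucagon signalling in the liver, with the growth of pancreatic alpha cells in view. Which segment of Gcgr was disrupted, and whether the genotypes were littermates, is not stated in the labels.

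Glutathione is a tripeptide of glutamate, cysteine and glycine, and the liver is its main site of production and export. Glutamate-cysteine ligase joins the first pair of amino acids in the rate-limiting step, and glutathione synthetase adds glycine. NRF2, the product of Nfe2l2, is held at low protein levels by KEAP1, which marks it for degradation. When KEAP1 is modified by electrophiles or oxidants, NRF2 pairs with small MAF proteins on antioxidant response elements and raises the transcription of genes such as Gclc, Gclm, Nqo1, Txnrd1 and Srxn1. NRF2 is regulated largely as a protein, so its own mRNA need not follow its activity. Glutathione draws on the same amino acids that glucagon directs to breakdown in the liver.

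The label check and the depth bear on every comparison. Gcgr stood at 123% of the wild-type mean in the knockout-labelled libraries and at 11.8% in the antibody-labelled libraries, so the knockout label was not reflected in the gene's total signal. The low signal lay in the antibody-labelled group, labelled Gcgr+/+, at 1808 to 2496 normalized counts against 17565 to 27365 in the other libraries. Whether the labels of these groups were interchanged was not tested, and the groups are named by their labels. Estimated reads assigned to genes ranged from 10.99 M in knockout-labelled library 1 to 30.1 M in wild-type library 2. Knockout-labelled library 1 also stood apart on the first principal component, which holds 22.9% of the variance, at 84.3 against -19.2 to 1.71 for the other libraries, and its summed hepatocyte markers were the highest, at 2256700.0 normalized counts against 1288570.0 to 1616540.0. Members' and named pathway genes' values that rest on it are therefore also given without it, beside the result or together after the pathway lists. Values below are the deposited normalized counts, a signal per gene and library whose scaling for gene length is not stated, so levels are not compared between genes. Taking the commonest value above the floor as 1 read, an estimated 111 to 17375 reads lay behind each member's value in a library. P-values measure the spread between these samples. In bulk liver, fewer cells of a type and less RNA per cell cannot be told apart.

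No member passed the test in any comparison. The comparisons were knockout-labelled against wild type (the knockout contrast), antibody-labelled against wild type (the antibody contrast) and antibody-labelled against knockout-labelled (the direct contrast). Tests were made with limma on log2(value + 1), two-sided, with p adjusted by Benjamini-Hochberg over all 20029 genes and a threshold of 0.05. In the knockout contrast, 0 of 9 members were called, where 0.155% of all genes were, and adjusted p ranged from 0.288 to 0.936. In the antibody contrast, 0 of 9 were called, where 1.34% of all genes were, and adjusted p ranged from 0.266 to 0.999. In the direct contrast, 0 of 9 were called, where 0.28% of all genes were, and adjusted p ranged from 0.316 to 0.882. At an unadjusted p under 0.05 the members numbered 1, 3 and 1 in these comparisons. The shares of all genes at that level were 13.8%, 10.3% and 13.3%. With so small a share of all genes called, 0 of 9 does not set the members apart, nor does it show that they were equal between groups. The 95% intervals of the fold changes, which are not adjusted for the number of genes, reached from 0.766-fold to 2.46-fold in the knockout contrast. They reached from 0.605-fold to 2.12-fold in the antibody contrast and from 0.468-fold to 1.87-fold in the direct contrast.

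**Figure D1:**
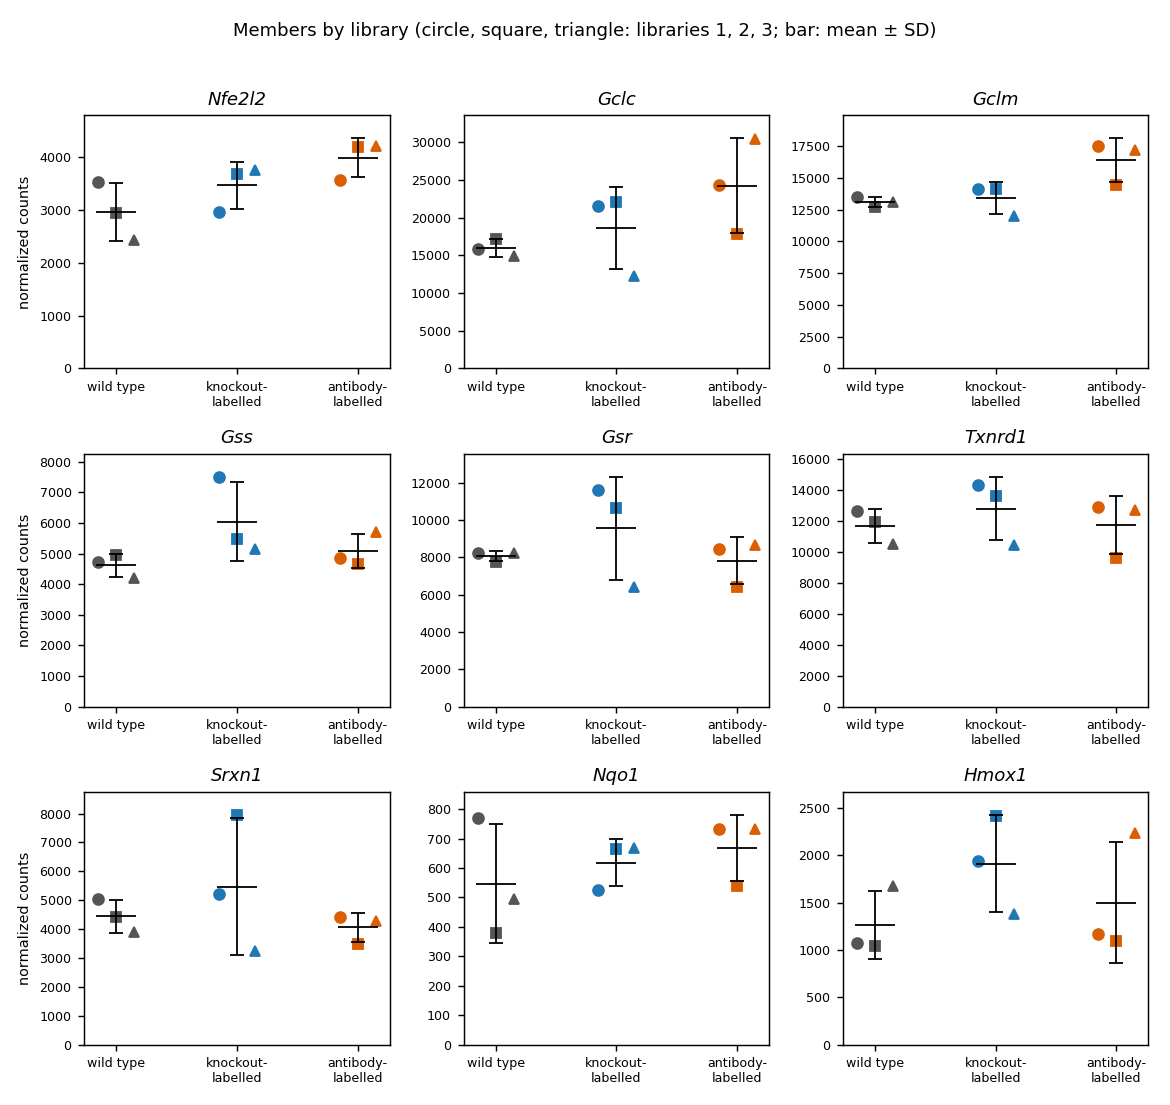
Normalized counts (vertical axes, from 0) of the 9 members in each of the 9 libraries, by group. Symbols are libraries and bars are the mean ± SD of 3. The antibody-labelled values of Nfe2l2, Gclc and Gclm all lie above the wild-type values. The SD is larger in knockout-labelled than in wild-type libraries for all members but Nfe2l2 and Nqo1. For Gclc the antibody-labelled SD is larger still.

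Nfe2l2 itself (ENSMUSG00000015839, mm9 chromosome 2, 75513570 to 75542698, minus strand; all gene coordinates are in mm9) read 3525, 2948 and 2429 normalized counts in wild-type libraries 1 to 3. The knockout-labelled libraries read 2954, 3691 and 3764, and the antibody-labelled libraries read 3561, 4186 and 4214. Every antibody-labelled value was above every wild-type value, narrowly at the nearest pair, while the knockout-labelled values overlapped both groups. The log2 fold change in the antibody contrast was 0.44 (SE 0.15, 95% interval 0.11 to 0.76, adjusted p = 0.266). It was 0.23 in the knockout contrast (SE 0.15, adjusted p = 0.522) and 0.35 without knockout-labelled library 1 (adjusted p = 0.426).

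Gclc, the catalytic subunit of glutamate-cysteine ligase (ENSMUSG00000032350, chromosome 9, 77602342 to 77642292, plus strand), had the highest fold change of the 9 in the antibody contrast. It read 15799.7, 17200.3 and 14923 normalized counts in wild type. It read 21517, 22044 and 12322 in knockout-labelled libraries, and 24341, 17893 and 30452 in antibody-labelled libraries. The antibody-labelled and wild-type values did not overlap, although antibody-labelled library 2 came close to the wild-type range and antibody-labelled library 3 was far above it. Knockout-labelled libraries 1 and 2 were above all wild-type values and library 3 was below them all. The log2 fold change was 0.57 in the antibody contrast (SE 0.23, 95% interval 0.06 to 1.08, adjusted p = 0.412). In the knockout contrast it was 0.18 (SE 0.23, adjusted p = 0.784), and 0.05 without knockout-labelled library 1 (adjusted p = 0.966).

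Gclm, the modifier subunit that raises the efficiency of the ligase (ENSMUSG00000028124, chromosome 3, 121948475 to 121972902, plus strand), varied little among the wild-type mice, with a range of 0.09 in log2. Its wild-type values were 13501, 12685 and 13136 normalized counts. The knockout-labelled values were 14136, 14166 and 11988, and the antibody-labelled values were 17540.5, 14443 and 17231. The antibody-labelled libraries lay above all 6 others. The log2 fold change was 0.32 against wild type (SE 0.12, adjusted p = 0.317) and 0.29 against knockout-labelled (SE 0.12, adjusted p = 0.316). It was 0.03 in the knockout contrast (SE 0.12, adjusted p = 0.936), with a 95% interval of -0.22 to 0.28, and -0.0079 without knockout-labelled library 1.

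The ratio of Gclc to Gclm signal was also compared between groups, since the subunits act as a pair. As scaling for gene length is not stated, the level of the ratio does not give the proportion of the subunits. The ratio was 1.17, 1.36 and 1.14 in wild-type livers, 1.52, 1.56 and 1.03 in knockout-labelled livers and 1.39, 1.24 and 1.77 in antibody-labelled libraries. The groups overlapped. An exact two-sided permutation test on the log2 ratio gave p = 0.2 for the antibody contrast (adjusted over 3 comparisons, 0.6), p = 0.5 for the knockout contrast (adjusted 0.7) and p = 0.7 for the direct contrast (adjusted 0.7). The smallest p that 3 against 3 allows is 0.1.

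Gss, glutathione synthetase (ENSMUSG00000027610, chromosome 2, 155388917 to 155418546, minus strand), stood highest in the knockout-labelled group. It read 4712, 4941 and 4188 normalized counts in wild-type livers, 7513, 5481 and 5138 in knockout-labelled livers and 4861, 4651 and 5699 in antibody-labelled libraries. All knockout-labelled values lay above all wild-type values, and library 1, which stood apart above, was the highest. The log2 fold change in the knockout contrast was 0.37 (SE 0.15, 95% interval 0.05 to 0.69, adjusted p = 0.288). Without knockout-labelled library 1 it was 0.21 (adjusted p = 0.555). It was 0.13 in the antibody contrast (SE 0.15, adjusted p = 0.869). Gss shares 22544 of the 29630 bases of its annotated span with Acss2, acetyl-CoA synthetase, on the opposite strand. Acss2 read 5548 to 8694 normalized counts in the 9 libraries. Whether reads were counted by strand is not given in the sources used here, so reads of the pair may not be fully separated. Acss2 was at 0.23 (adjusted p = 0.480) in the knockout contrast and at 0.36 (adjusted p = 0.327) in the antibody contrast.

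Genes whose groups did not overlap, with the first group the higher, numbered 1 member in the knockout contrast (Gss), where 7.09% of all genes showed this. In the antibody contrast there were 3 (Nfe2l2, Gclc and Gclm), where 9.65% of all genes did. In the direct contrast there was 1 (Gclm), where 9.82% did. The comparisons against wild type share the same 3 control libraries.

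**Figure D2:**
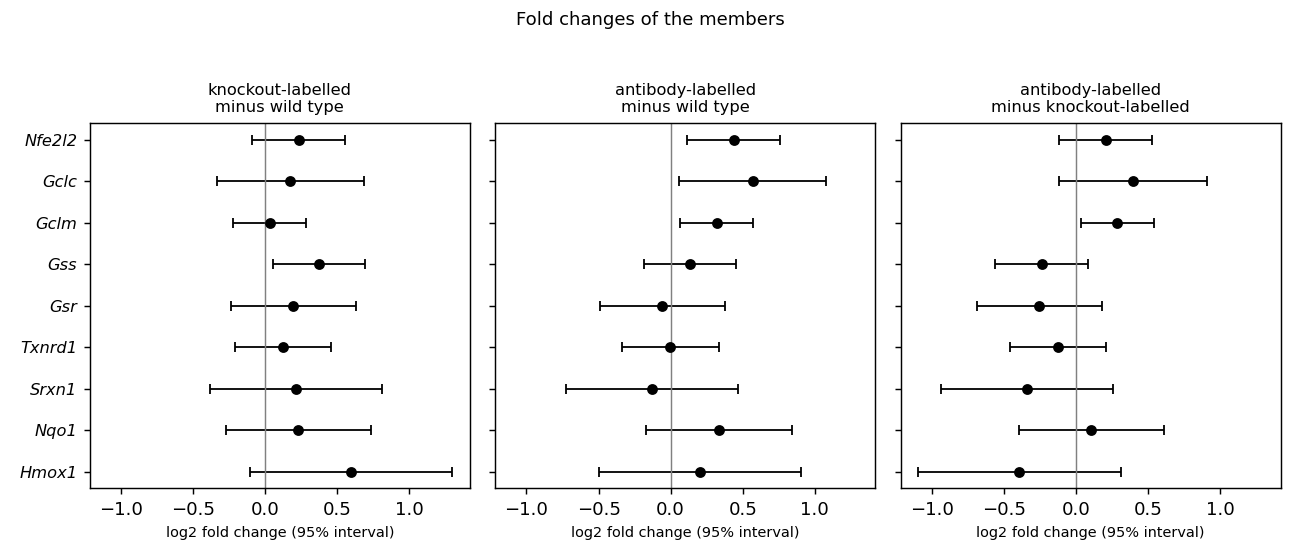
Log2 fold changes (horizontal axes) of the 9 members in the 3 comparisons, as points with 95% intervals from limma. The intervals of Nfe2l2, Gclc and Gclm lie above 0 in the antibody contrast, as does that of Gss in the knockout contrast, and no adjusted p is below 0.05.

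Among the reducing enzymes the groups overlapped. Gsr, glutathione reductase (ENSMUSG00000031584, chromosome 8, 34762995 to 34808635, plus strand), returns oxidized glutathione to its reduced form. It read 8227, 7737 and 8232 normalized counts in wild-type livers, 11617, 10616 and 6396 in knockout-labelled livers and 8417, 6384 and 8660 in antibody-labelled libraries. The wild-type values were tight and the knockout-labelled values ran both above and below them. Its log2 fold change was 0.20 in the knockout contrast (SE 0.20, adjusted p = 0.704; 0.03 without knockout-labelled library 1). It was -0.06 in the antibody contrast (SE 0.20, adjusted p = 0.971).

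Txnrd1, the cytosolic thioredoxin reductase (ENSMUSG00000020250, chromosome 10, 82296696 to 82360469, plus strand), read 12645, 11938 and 10496 normalized counts in wild type. It read 14330.0, 13650.2 and 10471 in knockout-labelled libraries and 12947, 9599.5 and 12705 in antibody-labelled libraries. All groups overlapped. Its log2 fold change in the antibody contrast was the nearest to 0 of the 9, at -0.00 (95% interval -0.34 to 0.33, adjusted p = 0.999), which is 0.792-fold to 1.26-fold. In the knockout contrast it was 0.12 (SE 0.15, adjusted p = 0.766), and 0.04 without knockout-labelled library 1.

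Srxn1, sulfiredoxin, which repairs over-oxidized peroxiredoxins (ENSMUSG00000032802, chromosome 2, 151931252 to 151937112, plus strand), had both its highest and its lowest value in the knockout-labelled group. That group read 5218, 7953 and 3253 normalized counts, against 5037, 4421 and 3887 in wild type and 4425, 3498 and 4290.2 in antibody-labelled libraries. Its log2 fold change was 0.21 in the knockout contrast (SE 0.27, adjusted p = 0.770), and 0.20 without knockout-labelled library 1. It was -0.13 in the antibody contrast (SE 0.27, adjusted p = 0.951).

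Nqo1, a quinone reductase widely used as a readout of NRF2 activity (ENSMUSG00000003849, chromosome 8, 109912125 to 109927106, minus strand), had the fewest reads of the 9. It read 770.5, 378 and 494 normalized counts in wild-type livers, 526, 663 and 667 in knockout-labelled livers and 733, 539 and 733 in antibody-labelled libraries. Wild-type library 1 was the highest of all 9 libraries and wild-type library 2 the lowest, so the controls spanned the other groups. The log2 fold changes were 0.23 (SE 0.23, adjusted p = 0.702) and 0.34 (SE 0.23, adjusted p = 0.744) in the knockout and antibody contrasts, and the first was 0.34 without knockout-labelled library 1.

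Hmox1, haem oxygenase 1, which opens the haem ring (ENSMUSG00000005413, chromosome 8, 77617490 to 77624495, plus strand), varied most across the 9 libraries. It read 1073, 1042 and 1671 normalized counts in wild-type livers, 1942, 2408 and 1380.2 in knockout-labelled livers and 1165, 1095 and 2237 in antibody-labelled libraries. In each group a library fell within the range of another group. Its log2 fold change in the knockout contrast, 0.60, was the largest of the 9 there (SE 0.31, 95% interval -0.11 to 1.30, adjusted p = 0.439), and it was 0.57 without knockout-labelled library 1. In the antibody contrast it was 0.20 (SE 0.31, adjusted p = 0.921). Hmox1 is also made by Kupffer cells, the liver macrophages that clear old red cells. The summed signal of 11 Kupffer cell and macrophage markers ran from 26034.5 to 34550 in wild type, 27308 to 40355.5 in knockout-labelled and 30538 to 34277.5 in antibody-labelled libraries. None of the 11 markers passed in any comparison, and none was at the floor of the table in all libraries. In wild type, library 3 had both the highest Hmox1 and the highest marker sum of its group. Knockout-labelled library 2, with the highest Hmox1, had the lowest marker sum of its group. Antibody-labelled library 3, with the highest Hmox1 of its group, had the middle marker sum. The part of these cells in the Hmox1 values was not tested.

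In the direct contrast, the fold changes of Nfe2l2, Gclc, Gclm and Nqo1 were positive, from 0.11 to 0.39. Those of Gss, Gsr, Txnrd1, Srxn1 and Hmox1 were negative, from -0.39 to -0.13. None passed.

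All 9 fold changes in the knockout contrast were positive, with a median of 0.21, where the median over all genes was -0.01 and 48.6% of genes were positive. The count became 8 without wild-type library 2 or knockout-labelled library 1, and 7 without knockout-labelled library 2. The antibody contrast had 6 positive, with a median of 0.20, where the median over all genes was 0.00 and 50.3% of genes were positive. That count became 8 with quantile normalization or without antibody-labelled library 2, 7 without wild-type library 1 or 2, and 5 without antibody-labelled library 3. For comparison, 6 of 7 hepatocyte markers were positive in the knockout contrast, with a median of 0.22. So were 54 of the 77 pathway genes described below. A positive majority in that contrast was therefore not particular to the members. In the antibody contrast 2 of the 7 markers and 42 of the 77 pathway genes were positive. The members share regulators and are not independent of each other.

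Several libraries were low or high for most members within their own group, a pattern chosen after the values were seen and given without a test. Antibody-labelled library 2 held the lowest value of its group for 8 of the 9 members, the exception being Nfe2l2. That library was the lowest of its group for 31.3% of all genes. Its members deviated from the group mean by a median of -0.28 on the log2 scale, against 0.00 over all genes. Knockout-labelled library 3 held the lowest value for 7 of the 9, the exceptions being Nfe2l2 and Nqo1, where it was the lowest for 27.4% of all genes. Its median deviation was also -0.28, with Srxn1 at -0.66, Gclc at -0.55 and Gsr at -0.53. Antibody-labelled library 3 was above its group mean for all 9 members, from 0.08 for Gclm to 0.66 for Hmox1. It was the highest of its group for 6 members, where it was for 33.8% of all genes. Knockout-labelled library 2 was above its group mean for 8 members and the highest for 4, where it was the highest for 33.5% of all genes. In wild type, library 1 was above the group mean for 7 members. It was the highest for 5 and the lowest for 0, against 32.3% and 34.4% of all genes. Wild-type libraries 2 and 3 were the lowest for 4 and 5 members, against 30.5% and 35.1% of all genes. For the counts above a group mean, the share of all genes was not computed. Deviations from a mean of 3 libraries sum to 0, so the low and high libraries of a group are not separate observations. The median range of a member within a group was 0.27 in wild type, 0.55 in knockout-labelled and 0.43 in antibody-labelled livers, where the medians over all genes were 0.37, 0.51 and 0.36.

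**Figure D3:**
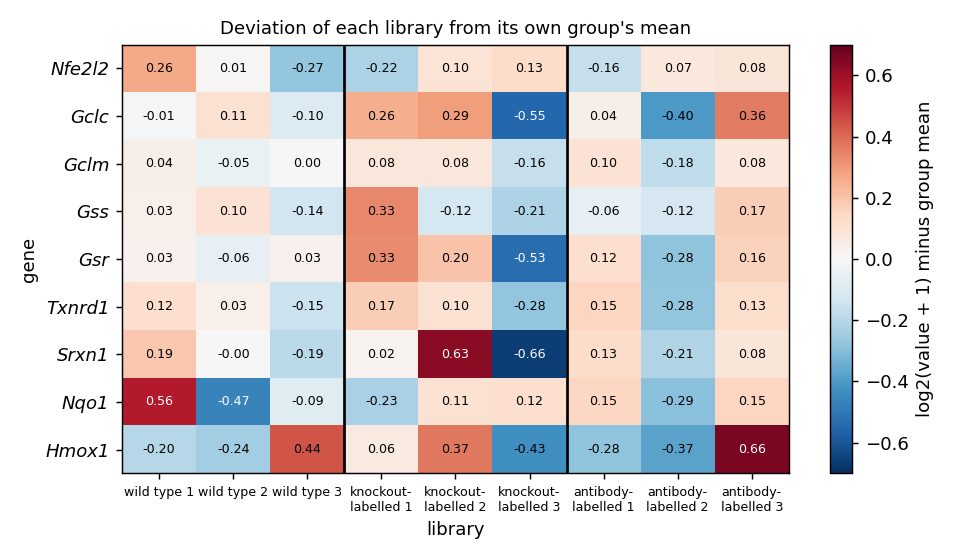
Deviation of each library from the mean of its own group, in log2(value + 1), for the 9 members (rows) and 9 libraries (columns). Knockout-labelled library 3 and antibody-labelled library 2 are blue (lower) for 7 and 8 of the 9 genes, and antibody-labelled library 3 is red (higher) for all 9.

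The members' median fold change moved with the libraries left out, given as a description, since the low and high libraries were picked from the members' own values. The knockout contrast's median of 0.21 became 0.45 when knockout-labelled library 3 was left out and 0.10 when library 2 of that group was. It became 0.31 without wild-type library 1 and 0.13 when wild-type library 3 was left out. The antibody contrast's median of 0.20 became 0.39 without antibody-labelled library 2, 0.05 without antibody-labelled library 3 and 0.10 without wild-type library 2. No member was called in any of these fits. The estimated depth was 21.6 M reads in knockout-labelled library 3 and 24.5 M in antibody-labelled library 2, and its part in the pattern was not tested.

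NRF2 acts through antioxidant response elements, so the letters upstream of the members were searched for the core of that element, and the stretches that hold it are shown. RefSeq promoter windows (250 bases before to 50 after a start site, build GRCm38.p6) were matched for 6 members, in 8 windows: Nfe2l2, Gclm, Gss, Nqo1, Txnrd1 and Srxn1. Gclc, Gsr and Hmox1 had no entry. The core TGACNNNGC and its variant TGAGNNNGC were searched on both strands. Either was found in 4 of the 8 windows, those of Nfe2l2, Gclm, Srxn1 and the second of 3 for Txnrd1, and in 27.8% of 32851 windows of the same length (12.4% for TGACNNNGC and 17.6% for TGAGNNNGC). The stretches with a match before the start site follow, 5′ to 3′ on the gene's strand, with the matching letters in capitals.
Srxn1, chr2:152105354-152105499, plus strand: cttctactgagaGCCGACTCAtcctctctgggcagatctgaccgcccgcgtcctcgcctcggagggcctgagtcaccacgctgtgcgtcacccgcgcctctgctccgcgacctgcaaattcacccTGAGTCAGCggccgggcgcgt
Gclm, chr3:122245411-122245443, plus strand: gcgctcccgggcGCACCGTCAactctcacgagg
Txnrd1, chr10:82859102-82859134, plus strand: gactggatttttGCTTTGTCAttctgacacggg
Nfe2l2, chr2:75704883-75704913, minus strand: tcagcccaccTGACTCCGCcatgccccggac

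The Srxn1 stretch holds TGAGNNNGC at -45 to -37 on the strand of the gene, and at -158 to -150 on the other strand, counting from the start site. The window also holds TGACNNNGC at 28 to 36, not shown. The Gclm match lies at -134 to -126 and the Txnrd1 match at -92 to -84, both TGACNNNGC on the other strand. The Nfe2l2 match, TGACNNNGC on the gene's strand, lies at -240 to -232. Of the members with a match, Gclm, Txnrd1 and Srxn1 were lowest of their group in both low libraries, and Nfe2l2 in neither. The windows of Gss and Nqo1 hold neither pattern of letters. Gss was lowest in both low libraries and Nqo1 in antibody-labelled library 2 only. The low libraries were picked from these members' own values, so most members, with or without a match, were lowest there by that choice. Gclc, Gsr and Hmox1, also lowest in both, had no window. The comparison therefore cannot show a link, and whether the letters bear on the low libraries was not tested. A match is a description of letters, and elements farther from the start site are outside these windows.

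Of 77 other genes of the pathway, in 8 lists, 1 was higher and 0 lower in the knockout contrast, and 4 were higher and 3 lower in the antibody contrast. In the direct contrast 0 were higher and 1 was lower. Of all genes, 0.0599% were higher and 0.0949% lower in the first, 0.714% and 0.624% in the second, and 0.19% and 0.0899% in the third. The lists were chosen with earlier results of these data known. Their counts beside these shares are therefore a description and cannot show that the pathway was enriched. The median fold changes of the 77 were 0.13, 0.07 and -0.13, where those of all genes were -0.01, 0.00 and 0.02. The calls of Mat1a and Ces2g in the antibody contrast held in all 19 alternative settings, and those of the other genes are qualified below.

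Among 9 regulators of NRF2, 1 rose. Maff, a small MAF protein that pairs with NRF2, read 397, 277 and 279.6 normalized counts in wild-type livers, 497, 522 and 359 in knockout-labelled livers and 628, 685 and 579.8 in antibody-labelled libraries. In the antibody contrast it rose by 1.00 in log2 (SE 0.19, adjusted p = 0.0222), the groups apart by more than their spread. This call held in 13 of 19 alternatives and was lost without trend and robust estimation, without wild-type library 2 or 3, or without any 1 of the antibody-labelled libraries. In the knockout contrast Maff was at 0.53 (adjusted p = 0.232). Mafk, of the same family, was at 0.52 (adjusted p = 0.167) in the knockout contrast and 0.31 (adjusted p = 0.547) in the antibody contrast. Keap1, the NRF2 repressor, was at 0.08 and -0.15, and Bach1, a repressor that competes for the same elements, at -0.25 and 0.07 (adjusted p from 0.360 to 0.925), both chosen after their values were seen. Sqstm1, which draws KEAP1 into autophagy, was at -0.44 (adjusted p = 0.256) in the direct contrast.

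The supply of cysteine, the limiting amino acid of glutathione, was the list with the most genes called: 3 of 7 fell in the antibody contrast, and 4 did not pass. Like the other lists, it was chosen with earlier results of these data known. Cth, which releases cysteine from cystathionine, read 41685.5, 33055 and 35922 normalized counts in wild-type livers, 25555, 13124 and 24789 in knockout-labelled livers and 11489, 10512.0 and 11906 in antibody-labelled libraries. The 3 groups did not overlap. In the antibody contrast Cth fell by 1.70 in log2 (SE 0.22, adjusted p = 0.0039; 0.0814 with no filter on low values), and was at -0.86 in the knockout contrast (adjusted p = 0.120). Cbs, which makes cystathionine, fell by 0.97 (SE 0.17, adjusted p = 0.0162), and Mat1a, which makes the methyl donor upstream of it, fell by 0.98 (SE 0.13, adjusted p = 0.00408). The Cbs call was lost with no filter, without trend and robust estimation, without wild-type library 1 or 2, or without antibody-labelled library 1 or 2, with adjusted p up to 0.107. In the knockout contrast Cbs was at -0.50 (adjusted p = 0.221) and Mat1a at -0.22 (adjusted p = 0.499). In the same antibody-labelled livers Gclc and Gclm, which use the cysteine, were at 0.57 and 0.32 and not past the test.

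**Figure D4:**
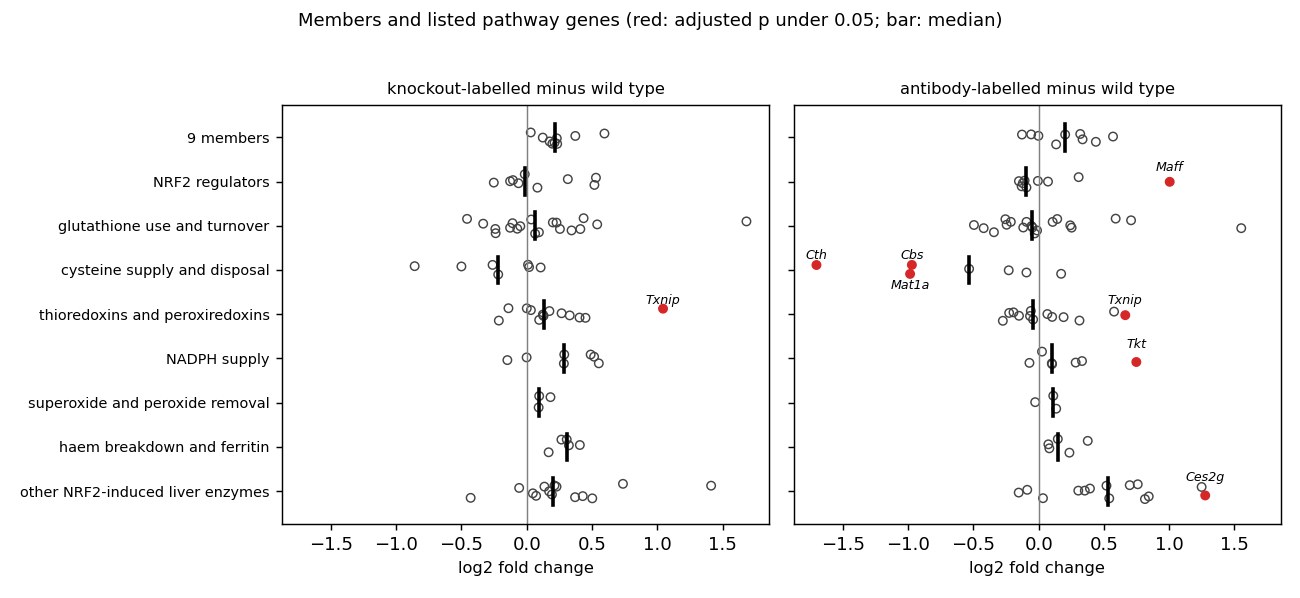
Log2 fold changes (horizontal axes) of the 9 members and of 77 pathway genes in 8 lists, against wild type. Each circle is a gene, filled red where adjusted p is below 0.05, and black bars are medians. Cth, Cbs and Mat1a lie furthest to the left in antibody-labelled livers, and Txnip is the gene filled in both panels.

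Among 13 thioredoxin and peroxiredoxin genes, 1 was called against wild type in each comparison, with 12 not past. Txnip, an inhibitor of thioredoxin that also responds to glucose, read 11014, 14357 and 12695 normalized counts in wild-type livers, 23270.5, 28709 and 26370.3 in knockout-labelled livers and 22173, 19228 and 18714 in antibody-labelled libraries. Both groups lay above all wild-type values. It rose by 1.04 in knockout-labelled livers (SE 0.13, adjusted p = 0.0181; 0.033 without knockout-labelled library 1) and by 0.66 in antibody-labelled livers (SE 0.13, adjusted p = 0.0306). Both calls were lost without trend and robust estimation, the first also without wild-type library 1, and the second also without any 1 of the wild-type or antibody-labelled libraries, with adjusted p up to 0.147. Prdx3, the mitochondrial peroxiredoxin, was at -0.37 (adjusted p = 0.164) in the direct contrast.

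Of 7 genes of NADPH supply, which feeds both reductases, 1 rose in the antibody contrast. Tkt, transketolase of the pentose phosphate pathway, rose by 0.75 (SE 0.13, adjusted p = 0.0162), from 5871 ± 315 to 9874 ± 785 normalized counts (SD, n = 3 each), and was at 0.49 (adjusted p = 0.139) in the knockout contrast. Its call was lost without trend and robust estimation, and without wild-type library 1 or 2 or antibody-labelled library 1 or 3. Pgd, which makes NADPH in the same pathway, was at 0.55 (adjusted p = 0.139) in the knockout contrast, and Pgls at -0.49 (adjusted p = 0.173) in the direct contrast.

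Of 14 other liver enzymes known to respond to NRF2, 1 rose and 13 did not pass in the antibody contrast, and the list's median was 0.53. Ces2g, a carboxylesterase, rose by 1.28 (SE 0.15, adjusted p = 0.00252), from 1404 ± 68.3 to 3417 ± 435 normalized counts (SD, n = 3 each). It was at 0.74 (adjusted p = 0.0711) in the knockout contrast and 0.54 (adjusted p = 0.164) in the direct contrast. The median of the list in the knockout contrast was 0.20, with 0 of 14 called.

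None of 19 genes of glutathione use and turnover passed in any comparison. Ggct, which breaks down gamma-glutamyl dipeptides, was at 0.54 (adjusted p = 0.0937) in the knockout contrast and -0.59 (adjusted p = 0.0708) in the direct contrast. Its knockout-labelled values, 639, 619 and 707 normalized counts, lay above all 6 others, which ran from 395 to 459. Abcc3, an exporter of conjugates, was at 0.59 (adjusted p = 0.127) in the antibody contrast. Abcc4, another exporter, was at 1.04 (adjusted p = 0.0668) in the direct contrast. Slc7a11, the cystine importer that NRF2 induces in many cells, lay close to the floor of 1 in this tissue, with group means from 1.47 to 1.97 normalized counts. Chac1, which degrades glutathione and belongs to the ATF4 stress response, was at 1.68 (adjusted p = 0.231) in the knockout contrast and 1.55 (adjusted p = 0.341) in the antibody contrast. Slc7a11 and Chac1 were chosen after their values were seen.

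Superoxide and peroxide removal (3 genes) and haem breakdown with ferritin (5 genes) had 0 genes called in every comparison. Cat, catalase, was at 0.18 (adjusted p = 0.659) in the knockout contrast, and the superoxide dismutases gave Sod2 at 0.11 (adjusted p = 0.843) in the antibody contrast and Sod1 at -0.12 (adjusted p = 0.660) in the direct contrast. Blvrb, a biliverdin reductase, was at 0.41 (adjusted p = 0.345) and 0.38 (adjusted p = 0.519) against wild type. Fth1, the ferritin heavy chain, was at -0.18 (adjusted p = 0.654) in the direct contrast.

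Without knockout-labelled library 1, the values that rest on it were as follows. Cth in the knockout contrast was at -1.03, Cbs at -0.64, Mat1a at -0.27, Maff at 0.46, Tkt at 0.35 and Ces2g at 0.81 (adjusted p from 0.134 to 0.443). Mafk was then at 0.63, Pgd at 0.46, Ggct at 0.56, Chac1 at 1.46, Blvrb at 0.18, Keap1 at 0.09 and Bach1 at -0.19, and Cat changed sign, to -0.01. None of these passed, and Txnip was the pathway gene still called. In the direct contrast without it, Gclc was at 0.52, Gclm at 0.33, Nfe2l2 at 0.09 and Nqo1 at -0.0075, a change of sign. Gss was at -0.07, Gsr at -0.09, Txnrd1 at -0.04, Srxn1 at -0.33 and Hmox1 at -0.36. Among the pathway genes, Mat1a was at -0.72 (adjusted p = 0.0758, no longer called), Abcc4 at 1.07, Ggct at -0.60, Sqstm1 at -0.32, Prdx3 at -0.36, Pgls at -0.41, Ces2g at 0.47, Sod1 at -0.11 and Fth1 at -0.02.

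The low libraries can also be read over the pathway genes. Antibody-labelled library 2 was the lowest of its group for 45 of the 77, where it was for 31.3% of all genes. In the knockout-labelled group library 2 was the lowest for 39 of the 77, where it was for 28.6% of all genes, and library 3 for 24, where it was for 27.4%. These counts are descriptions, with no test.

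Genes with the pattern most like a member were looked for by the root mean square difference of log2 values over the 9 libraries, each gene centred on its own mean. For Gclc the nearest of 20028 other genes were Srsf4 (0.13), Ugt2b35 (0.16) and Nbea (0.17), beside an SD of Gclc itself of 0.40. Gclm ranked 39 with a difference of 0.23, ahead of the other members, of which Txnrd1 came next at rank 504. For Hmox1, with an SD of 0.48, the nearest were the pseudogene Gm8876 (0.17), Phf13 (0.18) and Sema4c (0.19), and the nearest member was Gsr at rank 322. These are descriptions over 9 libraries that include the group differences.

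Of 51 markers of liver cell types in 7 lists, 0 passed limma's test in any comparison. The summed stellate cell and fibroblast markers ran from 15524 to 16647 normalized counts in antibody-labelled libraries, above the 13164 to 15368 of wild type. They ran from 14332 to 15077 in knockout-labelled libraries. Dcn was the largest part of this sum, with means of 9192 in antibody-labelled, 9365 in knockout-labelled and 8381 in wild-type libraries. Its mean was thus highest in the knockout-labelled group, unlike the sum. Of the 7 markers, 6 had a positive fold change in the antibody contrast. The summed sinusoidal endothelial markers were 21819 to 23570 in antibody-labelled, 20311 to 24662 in knockout-labelled and 18632 to 21830 in wild-type libraries. Their part in the values of Nfe2l2, Gclc and Gclm was not tested.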

How the data were processed

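Liver poly(A) RNA was sequenced to a stated 50 M paired reads of 50 bp, per the labels' protocols. Build mm9 and the tools TopHat2 2.0, FastQC and SAMtools come from the submitters' processing notes. What counted and scaled the reads is not given in the sources used here. As deposited by the authors, the table holds a normalized signal per gene and library, with a lowest value of 1, which 15160 of 37583 genes held throughout. Columns were matched to samples through the labels. With the worth of 1 read set to each library's commonest value past that floor, 40.8% to 45.8% of values under 10 reads were whole within 0.01 read, so reads were not recovered and no count test was run.

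Genes above 1 in at least 3 of 9 libraries were fitted as log2(value + 1) with limma 3.58.1 in R 4.3.3 (group as factor, all 9 libraries, trend and robust estimation), which was tested on simulated data. P-values are Benjamini-Hochberg adjusted over 20029 genes and measure the spread between mice. Every listed gene but the marker Tf was matched, Adgre1 by its gene ID; Mafg has more than a single row and the higher was used. All 9 members were given; of the lists, every gene called and the smallest adjusted p per list and comparison. The members and lists were chosen with earlier results of these data known. Permutation tests used scipy 1.17.1. Alternatives changed the filter, pseudocount, scaling, moderation, weights, samples and replicate block.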

Additional observations from a re-analysis of the deposited data

Results flagged for a closer look

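Of the members and the pathway genes called, Mat1a, which makes S-adenosylmethionine, differed between antibody-labelled and knockout-labelled livers in the direct test, at -0.77 on the log2 scale (limma, SE 0.13, adjusted p = 0.047). It read 157372, 148966 and 158498 normalized counts in antibody-labelled libraries and 282462, 264824 and 244568 in knockout-labelled libraries, so all 3 values of the first lay below all 3 of the second. The call held in 5 of 19 alternatives, with adjusted p from 3.95e-05 to 0.182. Leaving out any 1 library other than knockout-labelled library 2 ended it.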

How the results depend on the processing

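No member was called in any of 19 alternatives, or 0 of 513 member values. Signs changed in 13 of them, none past the test. With quantile normalization Gsr became 0.0053 and Txnrd1 0.082 in antibody-labelled against wild type. Over the fits that left out 1 library each, Gclm ran from -0.0095 to 0.11, Nqo1 from -0.0039 to 0.51 and Srxn1 from -0.10 to 0.54 in knockout-labelled against wild type. Gsr ran from -0.14 to 0.083, Txnrd1 from -0.078 to 0.14 and Hmox1 from -0.13 to 0.42 in antibody-labelled against wild type, and Nqo1 from -0.0075 to 0.25 and Txnrd1 from -0.26 to 0.014 in the direct comparison. Counts of all genes called, 31, 268 and 56, moved more: leaving out 1 library gave 4 to 154, 111 to 295 and 1 to 91. In the first of these the count was 4, 16 and 86 without wild-type library 1, 2 or 3, 8, 154 and 15 without knockout-labelled library 1, 2 or 3, and 7 and 16 without antibody-labelled library 2 or 3. In the second it was 119 and 113 without wild-type library 1 or 2, and 169, 111 and 159 without antibody-labelled library 1, 2 or 3. In the direct comparison it was 14 and 16 without wild-type library 1 or 2, 8 and 91 without knockout-labelled library 1 or 2, and 5, 1 and 13 without antibody-labelled library 1, 2 or 3. Without trend and robust estimation they were 0 (2402 at an unadjusted p under 0.05), 71 and 1. In knockout-labelled against wild type the count was 65 with no filter and 15 with the 6 libraries compared. In antibody-labelled against wild type it was 666 with array weights. In the direct comparison it was 23 with a pseudocount of 10, 29 with median-of-ratios scaling, 19 with array weights and 16 with the 6 libraries compared. Pathway genes called, 1, 7 and 1, became 0 to 4, 3 to 9 and 0 to 3 without 1 library, and 0, 3 and 0 without trend and robust estimation. The 7 became 12 with array weights, and the last 1 became 0 with a pseudocount of 10, median-of-ratios scaling, quantile normalization, array weights or the 6 libraries compared. The causes were not tested. Deviations of same-numbered libraries gave r from -0.14 to 0.13 over 9 pairs, and those of differently numbered libraries r from -0.12 to 0.14. Knockout-labelled library 2 deviated most like antibody-labelled library 3 (0.14). Deviations from a mean of 3 libraries cannot decide whether libraries were paired. With the replicate number as a block the counts of calls were 38, 251 and 45, with 0 members and 1, 8 and 1 pathway genes. Knockout-labelled library 1 had the fewest estimated reads, and Nqo1 there rested on about 111 reads.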
